A study of Mus musculus with 8 samples.

Results

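Receptors for neuropeptides and for the adrenergic transmitters let immune cells read signals from nerves. The 7 receptor genes described here were Nmur1, Ramp1, Calcrl, Vipr1, Vipr2, Tacr1 and Adrb1. They were taken by gene symbol from the 38392 genes measured by RNA-seq in eosinophils of mouse bone marrow and small intestine, and all 7 symbols were found once. In cells sorted as small intestinal eosinophils Nmur1 and Vipr1 were higher than in cells sorted as bone marrow eosinophils, Ramp1 and Calcrl were lower, and Vipr2, Tacr1 and Adrb1 did not pass the test.

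The libraries came from wildtype C57/BL6 female mice, 4 libraries per tissue, and the methods give 6 to 14 weeks as the age range over all experiments. Both populations carried CD11b, Siglec-F and a high side scatter. Bone marrow cells were in addition gated as Ly6G- and Ly6C-, and intestinal cells as MHC-II-. Intestinal cells were released by collagenase after the epithelium had been stripped and were enriched on anti-CD11b beads, whereas bone marrow was flushed, so tissue and handling cannot be told apart. Libraries are named by their column (BM_1, BM_3, BM_4 and BM_5; SI_6, SI_7, SI_10 and SI_11), since the columns give the tissue and not the single mouse. The methods give 4 mice per tissue and count mice as replicates, so p-values measure the spread between these 4.

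In background terms, NMUR1 is the receptor of neuromedin U, a peptide of enteric neurons, and is best known in immunology from type 2 innate lymphoid cells. CALCRL becomes a receptor for calcitonin gene-related peptide (CGRP) when it pairs with RAMP1, and a receptor for adrenomedullin when it pairs with RAMP2 or RAMP3. VIPR1 and VIPR2 bind vasoactive intestinal peptide, TACR1 binds substance P and ADRB1 binds noradrenaline and adrenaline. NMUR1 and TACR1 couple mainly to Gq, which activates phospholipase C, and the CGRP, VIP and beta adrenergic receptors mainly to Gs, which raises cyclic AMP.

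The 4 receptors that differed between tissues lay on 3 chromosomes, and the bases before their transcription starts are shown because these genes moved in opposite directions. The windows are RefSeq sequences of build GRCm38.p6, 5′ to 3′ on the strand of the gene, cut where an exon annotated by GENCODE begins. Capitals mark the core of the AHR response element (GCGTG), the GATA core (GATAA) and the left part of the cyclic AMP response element (TGACG), each searched on both strands.
Nmur1 (higher, chr1:86389362-86389611, minus strand): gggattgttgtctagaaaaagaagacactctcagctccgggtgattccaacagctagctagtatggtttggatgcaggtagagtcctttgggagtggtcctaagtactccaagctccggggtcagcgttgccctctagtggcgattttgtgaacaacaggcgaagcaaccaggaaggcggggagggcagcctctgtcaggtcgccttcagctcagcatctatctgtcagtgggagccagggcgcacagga
Vipr1 (higher, chr9:121642466-121642715, plus strand): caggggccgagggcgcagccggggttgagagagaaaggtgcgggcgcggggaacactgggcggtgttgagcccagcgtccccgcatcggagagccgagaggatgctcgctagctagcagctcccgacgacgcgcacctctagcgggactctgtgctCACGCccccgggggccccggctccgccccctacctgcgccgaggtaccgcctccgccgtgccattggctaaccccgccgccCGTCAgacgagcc
Ramp1 (lower, chr1:91179572-91179821, plus strand): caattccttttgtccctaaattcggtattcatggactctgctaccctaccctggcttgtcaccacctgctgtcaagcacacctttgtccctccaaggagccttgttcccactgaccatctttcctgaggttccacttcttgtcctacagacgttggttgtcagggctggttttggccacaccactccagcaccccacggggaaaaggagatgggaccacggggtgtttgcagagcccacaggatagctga
Calcrl (lower, chr2:84425412-84425516, minus strand): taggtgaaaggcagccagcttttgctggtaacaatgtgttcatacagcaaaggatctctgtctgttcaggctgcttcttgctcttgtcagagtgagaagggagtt
Of these 4 windows, that of Vipr1 held 1 GCGTG and 1 TGACG, both on the opposite strand, and the other 3 held none of the motifs. Among the receptors that were not called, the window of Adrb1 also held 1 GCGTG and 1 TGACG. That of Tacr1 held 1 TGACG, and that of Vipr2 none. A second Nmur1 window of the RefSeq table (chr1:86388208-86388391, 184 bases, 43.5% GC) held 1 GATAA. Among 32851 windows of 250 bases, 28.2% held GCGTG, 22.6% GATAA and 17.8% TGACG. The GC content was 72.8% for Vipr1, 55.2% for Nmur1, 54.0% for Ramp1 and 46.7% for the 105 bases of Calcrl. The Nmur1 window lies inside the longer gene that GENCODE annotates (chromosome 1, 86386303 to 86426228) and outside its exons.

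The cell type was checked against markers before the receptors were read. Of 5 eosinophil markers, Siglecf, Ccr3 and Il5ra rose in small intestine and the granule genes Epx and Prg2 fell. Their summed level was 2349 to 3323 normalised counts (reads divided by the size factor of the library) in bone marrow and 16954 to 25122 in small intestine. The 7 neutrophil precursor markers, Mpo and Elane among them, summed to 310536 to 397313 normalised counts in bone marrow, or 2.45% to 2.85% of the reads, and to 422.4 to 521.5 in small intestine. In every bone marrow library this sum was far above that of the eosinophil markers. The bone marrow values are therefore those of a sorted population that the labels call eosinophils, and its purity was not tested. All 7 epithelial markers rose in small intestine, and their sum ranged from 2638 in SI_10 to 16954 in SI_6. Of the remaining lists, 5 of 6 fibroblast and 5 of 6 macrophage markers rose, 1 of 5 B and plasma cell markers rose and 2 fell, and 1 of 6 mast cell and basophil markers rose and 3 fell. Among intestinal libraries SI_6 also had the highest sums of endothelial, smooth muscle, fibroblast, macrophage, and B and plasma cell markers. No marker of any list was at 0 in all libraries of a tissue. BM_5 and SI_10 had reads in the most genes of their tissue, 30886 and 33346, against 19713 to 29133 in the other libraries. The libraries held 11508002 to 21289164 reads in genes. In these bulk populations, fewer cells of a type and less RNA per cell cannot be told apart.

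Differences are small intestine minus bone marrow, in units of the log2 scale as deposited, and ± gives the standard error (SE) that limma fits, n = 4 libraries per tissue. The adjusted p-values are limma's after Benjamini-Hochberg adjustment over all 38392 genes. A gene was called at an adjusted p under 0.05. Of the 7 receptors 2 were called higher and 2 lower. Over all genes, 34.9% were called in either direction, 22.0% higher and 12.9% lower. The median difference was 0.36 for the 7 receptors and 0.37 for all genes. Libraries of the tissues did not overlap for the 4 called receptors, as for 34.3% of all genes, and overlapped for the other 3.

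**Figure D1:**
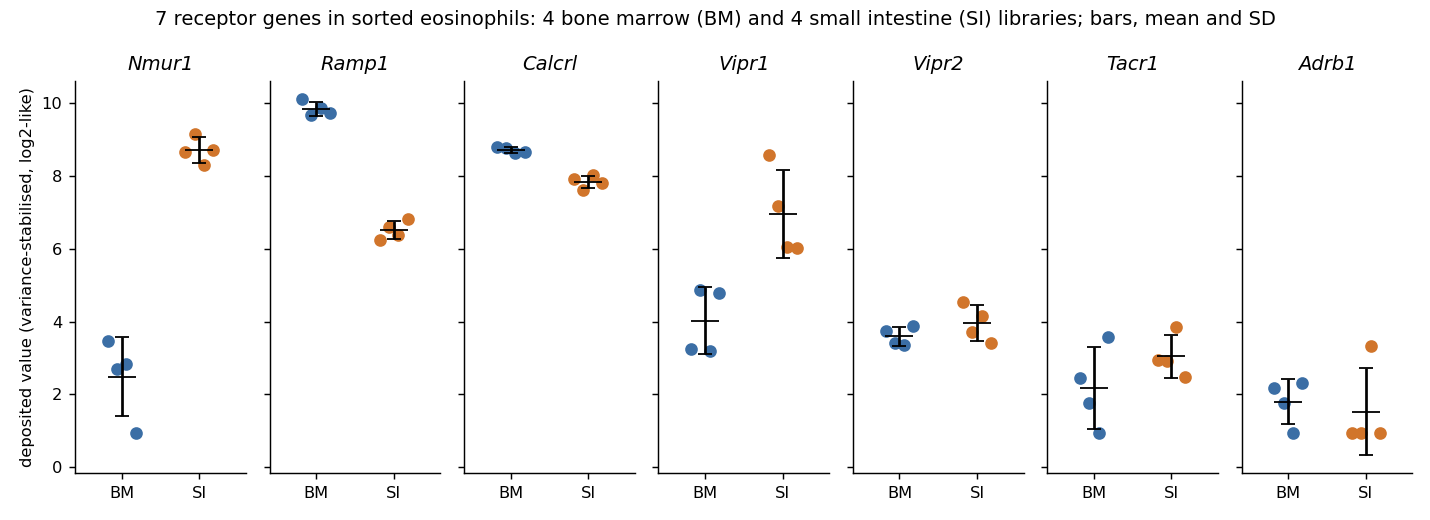
Deposited log2-like value (vertical axis) of the 7 receptors in each of 4 bone marrow (BM) and 4 small intestine (SI) libraries; each dot is a library, and the black bars give the mean and SD. Nmur1 and Vipr1 lay higher in every SI library than in any BM library, Ramp1 and Calcrl lower, and the dots of Vipr2, Tacr1 and Adrb1 overlapped.

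Nmur1 (ENSMUSG00000026237) was close to absent in bone marrow and well covered in small intestine. It had 10 reads in BM_1, 5 in BM_3, 4 in BM_4 and 0 in BM_5. It had 364 reads in SI_6, 411 in SI_7, 283 in SI_10 and 351 in SI_11. The lowest intestinal library thus lay far above the highest bone marrow library, and the 4 intestinal libraries lay close together. Normalised counts were 3.69 ± 3.14 in bone marrow and 423.2 ± 108.3 in small intestine (mean ± SD, n = 4 each), a 114.8-fold higher mean. On the deposited scale Nmur1 rose by 6.22 ± 0.51 (SE; 95% interval 5.05 to 7.39; limma adjusted p = 3.67e-05). Its rank per exon length among 20623 protein-coding genes was 2044 in small intestine, against 11868 in bone marrow.

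Because Nmur1 is known from innate lymphoid cells, the 8 markers of T cells and innate lymphoid cells were read beside it. Their summed level was 113.5 to 169.2 normalised counts in bone marrow and 126.6 to 180.3 in small intestine. Cd3e and Klrg1 rose, Il7r fell, and the other 5, Gata3 and Il17rb among them, did not pass the test. Without BM_5 and SI_10 together 1 of the 8 was called higher and 0 lower. In small intestine Nmur1 had 1838 to 3162 reads per 1000 reads of this list. In bone marrow it had at most 53.5 reads per 1000. The part of lymphoid cells in the Nmur1 difference was not tested.

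The genes whose profile over the 8 libraries was most like that of Nmur1 were Meis1 and Osgin1. Likeness was the root mean square difference of deposited values, each centred on the mean of its gene, among 13328 other protein-coding genes with a mean of at least 10 normalised counts. It was 0.48 for Meis1, a homeobox transcription factor, and 0.57 for Osgin1, an oxidative stress response gene. Meis1 rose by 5.93 ± 0.35 and Osgin1 by 5.80 ± 0.29. A like tissue difference follows from this way of choosing, for these genes and for the nearest profiles given below.

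Nmur2, the second neuromedin U receptor, stayed low. It had 0, 1, 0 and 17 reads in BM_1, BM_3, BM_4 and BM_5, and 15, 8, 14 and 10 in SI_6, SI_7, SI_10 and SI_11. BM_5 alone among bone marrow libraries had more reads than the intestinal libraries. On the deposited scale it was at 4.28, within the intestinal range of 3.87 in SI_7 to 4.32 in SI_6, so the tissues overlapped. The difference of 2.12 ± 0.70 was just past the threshold (limma adjusted p = 0.0446), and leaving out any library but BM_5 ended the call (adjusted p 0.0907 to 0.133). The log2 ratio of Nmur1 to Nmur2 per exon length went from 2.04 ± 4.26 in bone marrow to 5.84 ± 0.58 in small intestine (mean ± SD over 4 libraries). This ratio did not pass the 2-sided exact permutation test (p = 0.0571, adjusted over 6 ratios 0.0686). The difference between tissues, 3.80, was 1.73 without BM_5, and without BM_1 it was 4.91 and passed (adjusted exact permutation p = 0.0429).

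Ramp1 and Calcrl, the 2 parts of the CGRP receptor, were both lower in small intestine, and by different amounts. Ramp1 (ENSMUSG00000034353; chromosome 1, 91179822 to 91225196) had 1449 reads in BM_1, 1253 in BM_3, 970 in BM_4 and 905 in BM_5. It had 66 reads in SI_6, 67 in SI_7, 73 in SI_10 and 92 in SI_11. All 4 intestinal libraries were thus far below all 4 bone marrow libraries. Normalised counts fell from 924.2 ± 132.8 to 88.5 ± 16.2, so the mean was 10.4-fold higher in bone marrow. The difference was -3.34 ± 0.21 (95% interval -3.81 to -2.86; limma adjusted p = 9.05e-06).

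Calcrl (ENSMUSG00000059588; chromosome 2, 84330626 to 84425411) had 575 reads in BM_1, 668 in BM_3, 414 in BM_4 and 433 in BM_5. It had 217 reads in SI_6, 140 in SI_7, 235 in SI_10 and 187 in SI_11. The tissues did not overlap, but intestinal cells kept a clear signal. Normalised counts were 418.7 ± 22.6 in bone marrow and 227.4 ± 26.5 in small intestine, a mean 1.84-fold higher in bone marrow. The difference was -0.88 ± 0.18 (95% interval -1.28 to -0.47; limma adjusted p = 0.00484). Calcrl is an endothelial gene in many tissues. Of 8 endothelial markers 7 rose in small intestine, from a sum of 44.4 to 113.4 normalised counts in bone marrow to 334.3 to 495.6, while Calcrl fell. Egfl7 was the marker that did not pass. The part of endothelial cells in the Calcrl values was not tested.

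The unequal change was tested as a ratio within each library, which does not depend on scaling between libraries. The log2 ratio of Ramp1 to Calcrl reads per exon length went from 1.82 ± 0.19 in bone marrow to -0.67 ± 0.38 in small intestine (mean ± SD over 4 libraries). The difference of -2.50 had p = 0.0286 in a 2-sided exact permutation test, the smallest that 4 against 4 libraries allow, and 0.0429 adjusted over 6 ratios. With 1 library fewer the adjusted p was 0.0571 without BM_4, SI_6, SI_7 or SI_11, with differences of -2.61 to -2.38. The adjustment runs over all 6 ratios, so this value also depends on the other ratios. It does not show that this ratio itself changed less. By this ratio Ramp1 transcripts exceeded Calcrl transcripts per length in every bone marrow library and were fewer in every intestinal library.

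The other partners of CALCRL were low in both tissues. Ramp2 had 0 reads in all bone marrow libraries and 19, 10, 14 and 13 in SI_6, SI_7, SI_10 and SI_11. Its mean of 16.3 ± 3.02 normalised counts in small intestine was at least 27.0-fold higher than the level that 3 reads over the 4 bone marrow libraries would give. The fitted rise was 3.38 ± 0.18 (limma adjusted p = 4.2e-06). Ramp3 went from 0.709 ± 0.824 to 7.88 ± 4.15 normalised counts (1.88 ± 0.42, limma adjusted p = 0.00772), and this call was lost with quantile normalisation (0.93, adjusted p = 0.213), median-centring (0.98, 0.0907) and without BM_5 and SI_10 together (0.0764). The log2 ratio of Ramp1 to the sum of Ramp2 and Ramp3 per length went from 8.53 ± 0.82 to 1.40 ± 0.36, a difference of -7.14 (exact permutation p = 0.0286, adjusted 0.0429). Ramp3 had at most 2 reads in a bone marrow library, so the bone marrow ratio and its SD rest largely on the 0.5 reads added. The difference was -6.54 with 1 read added and -7.54 without length correction. The adjusted p was 0.0571 without BM_4, SI_6, SI_7 or SI_11, with differences of -7.27 to -6.88, and it also depends on the other ratios. Ramp1 was still the most abundant RAMP per length in the small intestine, at 29.3 normalised counts per kb against 5.71 for Ramp3 and 4.95 for Ramp2.

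Calcr, the calcitonin receptor and the other partner of the RAMPs, had at most 1 read in a bone marrow library and at most 3 in an intestinal library (1.03 ± 0.45, limma adjusted p = 0.116). Without SI_7 it was called higher (1.45, adjusted p = 0.0101). Crcp, named for its part in CGRP receptor signalling and also an RNA polymerase III subunit, was well covered and did not pass the test. Bone marrow had 243.5 ± 29.8 normalised counts and small intestine 212.8 ± 36.0 (-0.20 ± 0.21, 95% interval -0.68 to 0.28, limma adjusted p = 0.478).

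The nearest profiles to Ramp1 were those of the kinase gene Stk26 and the lysosomal sulfatase gene Arsb, with root mean square differences of 0.13 and 0.14. Stk26 fell by 3.26 and Arsb by 3.12 on the deposited scale. Those nearest to Calcrl were Patz1, a zinc finger transcription factor, and Mettl22, a methyltransferase, at 0.0712 and 0.0800. In bone marrow Ramp1 had 2.09 to 2.79 reads per 1000 reads of the neutrophil precursor list and Calcrl 1.11 to 1.30. In small intestine Ramp1 had 170.5 to 209.1 and Calcrl 408.2 to 560.7. The list was lower in small intestine, as were both genes, but it fell by far more than either. Its sum went from 310536 to 397313 normalised counts in bone marrow to 422.4 to 521.5 in small intestine. The part of neutrophil precursors in the differences of Ramp1 and Calcrl was not tested.

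Vipr1 (ENSMUSG00000032528; chromosome 9, 121642716 to 121672954) rose in small intestine with a wide spread between libraries. It had 8 reads in BM_1, 39 in BM_3, 6 in BM_4 and 26 in BM_5. It had 345 reads in SI_6, 102 in SI_7, 57 in SI_10 and 52 in SI_11. SI_6 was the highest by far, and the other intestinal libraries lay nearer to the highest bone marrow library. Normalised counts were 15.4 ± 10.9 in bone marrow and 160.5 ± 148.8 in small intestine, a mean 10.4-fold higher. The difference was 2.93 ± 0.66 (95% interval 1.41 to 4.44; limma adjusted p = 0.00845), and it was 2.39 (adjusted p = 0.019) without SI_6. Without SI_6 the intestinal mean was 88.5 normalised counts, 5.76-fold higher than in bone marrow.

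Vipr1 moved with the epithelial markers across the intestinal libraries. Relative to the mean of the 4 libraries, Vipr1 stood at 2.35 in SI_6, 0.88 in SI_7, 0.39 in SI_10 and 0.38 in SI_11. The summed epithelial markers stood at 2.28, 0.93, 0.35 and 0.43 in the same order. Vipr1 had 19.3 to 23.6 reads per 1000 epithelial reads in small intestine, a range of 1.22-fold, while its own normalised count ranged 6.11-fold. In bone marrow it had 67.8 to 390.0 reads per 1000 epithelial reads. Nmur1 by contrast ranged 1.84-fold in small intestine and 5.57-fold per epithelial read. The part of epithelial RNA in the Vipr1 difference was not tested.

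**Figure D2:**
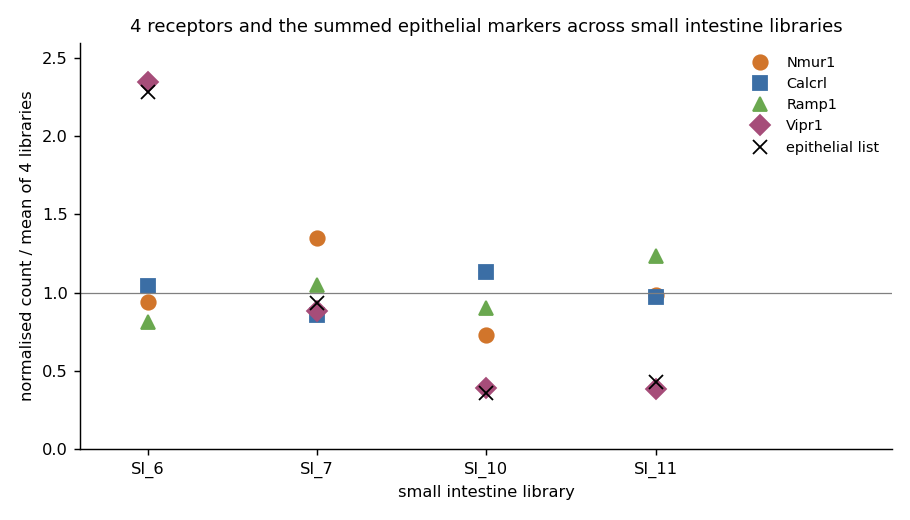
Normalised count divided by the mean of the 4 small intestine libraries (vertical axis) for Nmur1, Calcrl, Ramp1, Vipr1 and the summed epithelial markers in each intestinal library (horizontal axis). Vipr1 and the epithelial markers lay together in every library, at 2.35 and 2.28 in SI_6, whereas Nmur1, Calcrl and Ramp1 stayed between 0.73 and 1.35.

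The genes with profiles nearest to Vipr1 were Clic5, a chloride channel family member that links to the actin cytoskeleton, and Gm609. Their root mean square differences were 0.18 and 0.22. Clic5 rose from a mean of 21.4 to 227.8 normalised counts (2.94 ± 0.59) and Gm609 from 4.62 to 75.0 (3.24 ± 0.65).

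Vipr2 (ENSMUSG00000011171; chromosome 12, 116077726 to 116146261) was low in both tissues. It had 13, 11, 7 and 12 reads in BM_1, BM_3, BM_4 and BM_5, and 18, 7, 13 and 6 reads in SI_6, SI_7, SI_10 and SI_11. The libraries overlapped. The difference was 0.36 ± 0.29 (95% interval -0.29 to 1.01; limma adjusted p = 0.387). The gene Gm20658 overlaps Vipr2 on the other strand and had 33 reads over the 8 libraries, and the strand setting is not given in the sources used here. The 2 profiles nearest to Vipr2 were those of Trit1 and Zfp458.

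The log2 ratio of Vipr1 to Vipr2 per length went from 0.12 ± 1.13 in bone marrow to 2.90 ± 0.93 in small intestine (difference 2.78, exact permutation p = 0.0286, adjusted 0.0429). Its adjusted p was 0.0686 without BM_1 or BM_4 and 0.0857 without SI_6, SI_7 or SI_11, with differences of 2.39 to 2.86. Bone marrow libraries were on either side of equality, from -1.05 in BM_1 to 1.40 in BM_3. All intestinal libraries were above it, from 1.71 in SI_10 to 3.85 in SI_6. Adcyap1r1, the receptor of the related peptide PACAP, had 7.32 ± 6.89 and 14.04 ± 8.68 normalised counts (1.07 ± 0.70, limma adjusted p = 0.282).

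Tacr1 (ENSMUSG00000030043; chromosome 6, 82402334 to 82560104) was at the edge of detection. It had 3, 1, 0 and 9 reads in BM_1, BM_3, BM_4 and BM_5, and 4, 3, 10 and 2 reads in SI_6, SI_7, SI_10 and SI_11. BM_5 and SI_10 were the highest of their tissue. The difference was 0.87 ± 0.56 (95% interval -0.41 to 2.14; limma adjusted p = 0.271). Tacr3, the neurokinin B receptor, had reads in BM_5 alone among bone marrow libraries, 5 of them, and was called higher (2.04 ± 0.52, limma adjusted p = 0.0147), a call that ended without BM_3 (adjusted p = 0.0533) or SI_10 (0.0646). Tacr2, the neurokinin A receptor, was not called (1.42 ± 0.56, limma adjusted p = 0.0826), but it was called higher without SI_7 (1.96, adjusted p = 0.00677) and with limma voom on the recovered reads (2.72, 0.0118). The ratio of Tacr1 to Tacr2 plus Tacr3 did not differ detectably (-1.39 on the log2 scale, exact permutation p = 0.200).

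Adrb1 (ENSMUSG00000035283; chromosome 19, 56722199 to 56733113) was the lowest of the 7 receptors. It had 2, 1, 0 and 2 reads in BM_1, BM_3, BM_4 and BM_5. In small intestine SI_10 had 6 reads and SI_6, SI_7 and SI_11 had 0. The difference was -0.27 ± 0.59 (95% interval -1.62 to 1.09; limma adjusted p = 0.749), so a change of either sign was not detectable at this depth.

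Olfactory receptor genes, chosen for this purpose after the data were seen, gave a level for genes that leukocytes are not known to use. The 973 genes had 0.0329 to 0.715 reads per kb in bone marrow libraries and 0.193 to 0.815 in intestinal libraries, highest in BM_5 and SI_10. Tacr1 had 1.39 reads per kb in BM_5 and 1.54 in SI_10, below the 95th percentile of single olfactory genes there (3.45 and 3.46). Adrb1 had 0.591 and 1.77. Both receptors were above that percentile in BM_1 alone (0.462 for Tacr1 and 0.591 for Adrb1, against 0.181). Neither can be told from this level in any other library. Vipr2 had 1.34 to 4.03 reads per kb over the 8 libraries. It was below the same percentile in BM_5 (2.69), SI_10 (2.91) and SI_7 (1.57 against 1.94), so it cannot be told from this level there. Nmur1 had at least 167.0 in every intestinal library. The relatives and the genes of the other lists were not set against this level.

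Adrb3, a beta adrenergic relative of Adrb1, was not called (1.66 ± 0.63, limma adjusted p = 0.0725). It was called higher without BM_5 (2.22, adjusted p = 0.0127), without BM_5 and SI_10 together (1.83, 0.0103), with voom (2.77, 0.0405) and with a robust prior (0.0423).

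Among alpha adrenergic receptors 3 of 6 were called higher, all from few reads, against 22.0% of all genes. Adra2a rose from 1.17 ± 1.76 to 17.1 ± 9.30 normalised counts (2.53 ± 0.58, limma adjusted p = 0.0088). Adra1a (2.46 ± 0.71, limma adjusted p = 0.0272) lost its call without BM_1, BM_3, BM_4, SI_6, SI_7 or SI_10 (adjusted p 0.0804 to 0.110). Adra2b (1.26 ± 0.42, limma adjusted p = 0.0495) lost it without BM_1, BM_4, BM_5, SI_6, SI_10 or SI_11 (0.0751 to 0.129) and without BM_5 and SI_10 together (0.173). It also lost it with quantile normalisation (0.35, adjusted p = 0.654), median-centring (0.36, 0.567) and the robust prior (0.104). Adra1b, Adra1d and Adra2c were not called, and Adra1d and Adra2c had 0 reads in all bone marrow libraries. In small intestine Adra2a had 3.54, Adra1a 1.77 and Adra2b 1.57 normalised counts per kb, against 2.84 for Vipr2. Whether the levels of these alpha adrenergic receptors can be told from that of olfactory receptor genes was not tested.

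Counted together, 7 of the 15 relatives were called higher and 0 lower in limma, and 4 were called higher with quantile normalisation, against 22.0% and 15.5% of all genes. Without BM_1, BM_3, BM_4 or SI_6 they were 4 higher, against 10982, 11287, 11114 and 12921 calls of either direction over all genes. Without SI_10 they were 3, against 12051 such calls. The median difference was 1.42. At an unadjusted p under 0.05 they were 10 and 0, against 27.7% and 15.2% of all genes. Voom called 9 and 0, against 26.1% and 13.8%. Only 2 of the 15, Crcp and Adcyap1r1, had a mean of at least 10 normalised counts, and neither was called.

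**Figure D3:**
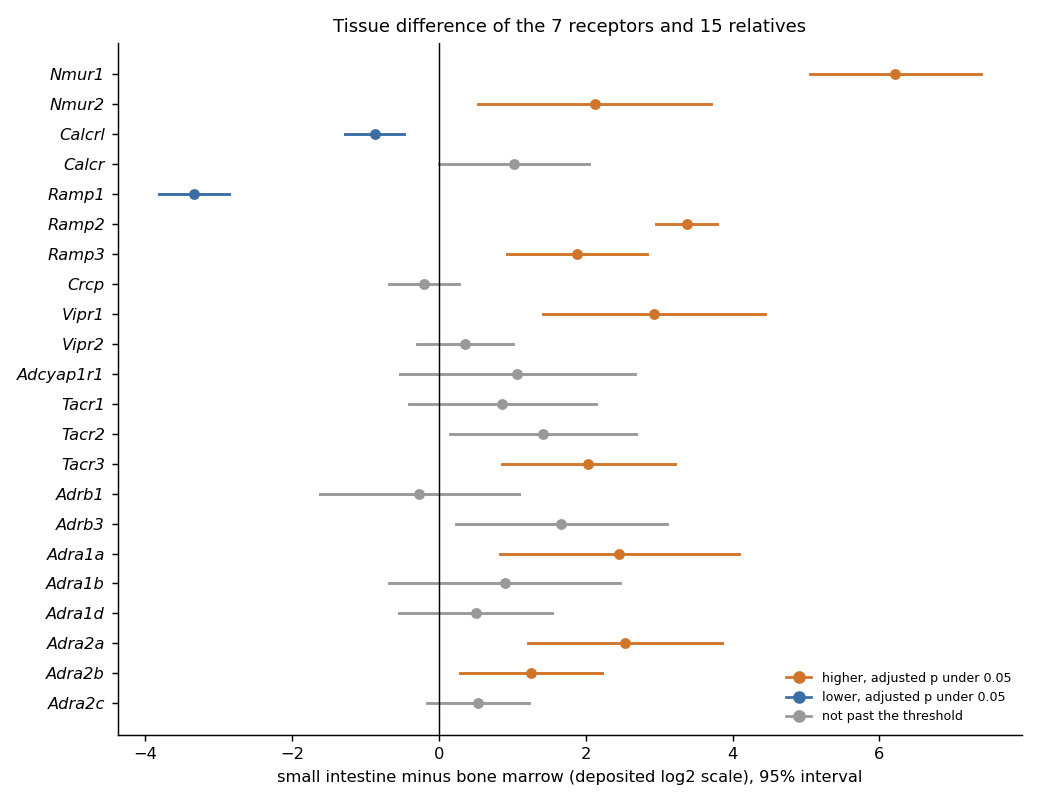
Tissue difference, small intestine minus bone marrow, in log2 units as deposited (horizontal axis) with 95% intervals for the 7 receptors and 15 relatives, ordered by family (vertical axis); orange marks genes called higher, blue lower, grey not called. Nmur1 at 6.22 lay farthest to the right, and Ramp1 at -3.34 and Calcrl at -0.88 were the 2 genes called lower.

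Levels between genes were compared per kb of exon. In bone marrow the order was Ramp1 (305.8 ± 44.0 normalised counts per kb, SD, n = 4), Calcrl (85.8 ± 4.63), Vipr1 (2.65 ± 1.88), Nmur1 (2.18 ± 1.85), Vipr2 (1.96 ± 0.48), Tacr1 (0.436 ± 0.588) and Adrb1 (0.299 ± 0.250). Vipr1 overlapped with Nmur1 over libraries, Nmur1 with Vipr2 and Tacr1 with Adrb1, and the other neighbours did not overlap. In small intestine the order was Nmur1 (249.7 ± 63.9), Calcrl (46.6 ± 5.43), Ramp1 (29.3 ± 5.36), Vipr1 (27.7 ± 25.7), Vipr2 (2.84 ± 1.23), Tacr1 (0.841 ± 0.580) and Adrb1 (0.485 ± 0.970). Ramp1 overlapped with Vipr1, Vipr2 with Tacr1 and Tacr1 with Adrb1. The first place thus passed from Ramp1 in bone marrow to Nmur1 in small intestine, and Calcrl was second in both.

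**Figure D4:**
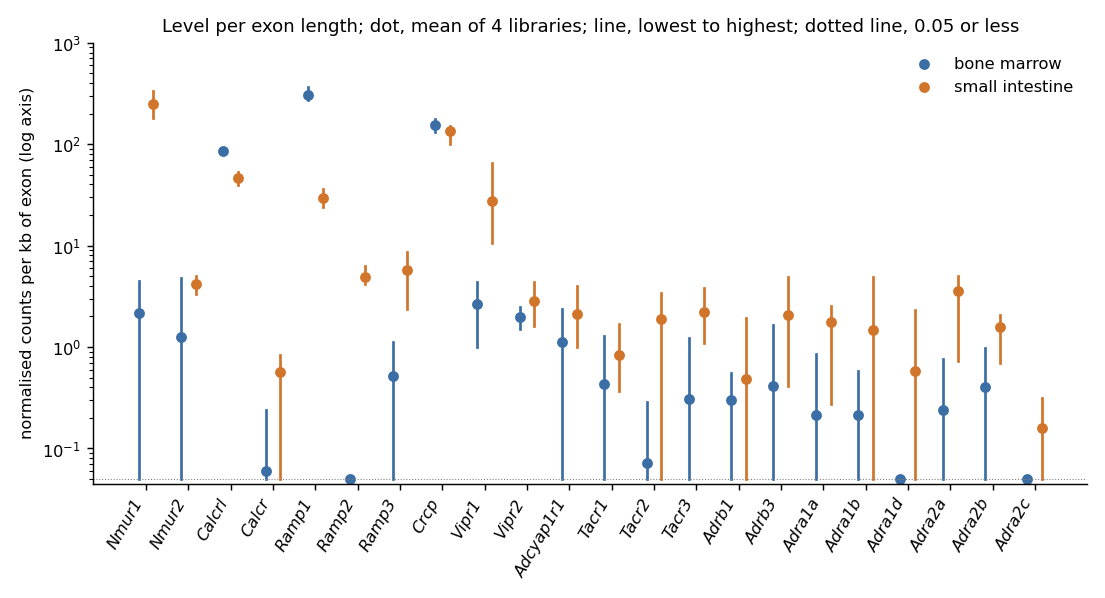
Normalised counts per kb of exon (vertical log axis) for the 7 receptors and 15 relatives; dots give the mean of 4 libraries per tissue and lines the lowest to highest library, with values of 0.05 or less drawn at the dotted line. Nmur1, Calcrl, Ramp1, Vipr1 and Crcp were the genes above 10 per kb in small intestine.

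Receptors of other neuropeptides were counted to set these values in context. Of 36 listed, 35 were in the table, and 9 were called higher and 0 lower, against 22.0% and 12.9% of all genes. The median difference was 0.92. With quantile normalisation 3 were called lower, against 18.3% of all genes, and with median-centring 2 were. Without BM_1, BM_4 or SI_10 they were 5 higher, against 10982, 11114 and 12051 calls of either direction over all genes. Without BM_5 they were 15, against 14670 such calls. At an unadjusted p under 0.05 they were 12 and 0, against 27.7% and 15.2% of all genes. Voom called 9 and 0 of them, against 26.1% and 13.8% of all genes. Oprm1, the mu opioid receptor, was the one with a high level. It had 417, 635, 350 and 501 reads in BM_1, BM_3, BM_4 and BM_5, and 1848, 1536, 1503 and 1809 in SI_6, SI_7, SI_10 and SI_11. It rose by 2.37 ± 0.21 (limma adjusted p = 5.04e-05), and its level in small intestine, 246.8 normalised counts per kb, was close to that of Nmur1. Sstr3, Mc1r and Grpr had larger fitted rises, 2.74, 2.61 and 2.43, from at most 2 reads over the bone marrow libraries. Avpr2 and Prokr2, next after Oprm1 by mean normalised count over the 8 libraries, were not called.

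Among the 10 acetylcholine and dopamine receptors 6 were called higher and 0 lower, against 22.0% and 12.9% of all genes, with a median difference of 1.35. At an unadjusted p under 0.05 the numbers were the same, against 27.7% and 15.2%. Voom called 7 and 0, against 26.1% and 13.8%. Chrm3, the muscarinic receptor of glands and smooth muscle, rose from 7.50 ± 8.23 to 91.8 ± 5.20 normalised counts (3.59 ± 0.59, limma adjusted p = 0.00159). Chrm1 rose by 2.43 ± 0.51 and Chrm2 by 1.86 ± 0.39. The 6 smooth muscle markers all rose as well, from a sum of 76.6 to 173.9 normalised counts to 729.7 to 1822, and their part in the Chrm3 difference was not tested.

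The ligands themselves had few reads. Of 16 genes for ligands and their synthesis 7 were called higher and 0 lower, against 22.0% and 12.9% of all genes, with a median difference of 1.12. Unadjusted p under 0.05 gave 8 and 0, against 27.7% and 15.2%, and voom 7 and 0, against 26.1% and 13.8%. Without SI_10, alone or together with BM_5, 4 were called higher, against 12051 and 13335 calls of either direction over all genes. Ddc, the enzyme that forms dopamine and serotonin from their precursors, rose from 8.49 ± 8.25 to 89.0 ± 74.2 normalised counts (3.17 ± 0.81, limma adjusted p = 0.0152). Ddc was highest in SI_6, as were the epithelial, endothelial, smooth muscle, fibroblast, macrophage, and B and plasma cell sums, and their part was not tested. Vip, the ligand of VIPR1 and VIPR2, had 24, 2, 19 and 13 reads in SI_6, SI_7, SI_10 and SI_11, and 5 reads in BM_5 alone among bone marrow libraries (2.64 ± 0.64, limma adjusted p = 0.012). Adm2, a peptide of the adrenomedullin group, had 3 reads in bone marrow and rose by 2.51 ± 0.46. Tac4, which encodes the haemokinins that bind TACR1, went from 9.50 ± 4.23 to 21.3 ± 2.49 normalised counts (0.99 ± 0.25, limma adjusted p = 0.0142). Markers of enteric neurons and glia summed to 26.1 to 44.6 normalised counts in bone marrow and 79.4 to 124.7 in small intestine, 5 of 8 called higher and 3 without BM_5 and SI_10 together, and their part in the ligand differences was not tested.

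Of 10 genes for the clearance of these ligands 6 were called higher and 1 lower, against 22.0% and 12.9% of all genes. Of the 9 with a mean of at least 10 normalised counts, 5 were called higher and 1 lower. Over all genes with such a mean, 5752 and 4585 of 16308 were. The median difference was 2.54. Without SI_6 a second gene was called lower, which made 2, against 12921 calls of either direction over all genes. Ece1, an endopeptidase that degrades CGRP and substance P in endosomes, rose from 136.2 ± 14.3 to 1837 ± 367 normalised counts (3.70 ± 0.21, limma adjusted p = 5.1e-06). Ace rose by 3.44 ± 0.33, Mme (neprilysin) by 3.47 ± 0.97 and Maoa, which oxidises noradrenaline, by 1.94 ± 0.55. Mme, Ace and Maoa were highest in SI_6, with 346, 227 and 1411 reads, and Ece1 was highest in SI_11 with 1986. The epithelial, endothelial, smooth muscle, fibroblast, macrophage, and B and plasma cell marker sums were also highest in SI_6. Their part in these rises was not tested. Ide, an enzyme that cleaves insulin and other small peptides, fell from 1947 ± 61.7 to 343.6 ± 117.6 (-2.54 ± 0.25, limma adjusted p = 9.74e-05).

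Downstream of the receptors, 11 of 37 signalling genes were called higher and 9 lower, against 22.0% and 12.9% of all genes. Of the 36 with a mean of at least 10 normalised counts, 10 were called higher and 9 lower. Over all genes with such a mean, 5752 and 4585 of 16308 were. The median difference was 0.11. With quantile normalisation the counts were 7 and 14, against 15.5% and 18.3% of all genes. Gnaq, the Gq subunit through which NMUR1 acts, rose from 1173 ± 81.4 to 3663 ± 313 normalised counts (1.64 ± 0.17, limma adjusted p = 0.000145; chosen after its value was seen). Gnas, the Gs subunit of the CGRP, VIP and beta adrenergic receptors, had 69.2 ± 12.3 and 43.9 ± 6.26 normalised counts and missed the threshold (-0.61 ± 0.21, limma adjusted p = 0.0515; also chosen after its value was seen). Gnai2, an inhibitory subunit, fell by 0.81 ± 0.20 on the log2 scale, and the abundant phospholipase Plcb2 was not called (0.23 ± 0.17).

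The 3 largest rises called were those of Grk5, Adcy6 and Adcy1, and the 3 largest falls those of Prkar2b, Adcy3 and Rapgef3. Grk5, a receptor kinase, rose from 30.4 ± 9.0 to 667.8 ± 78.8 normalised counts (4.33 ± 0.24, limma adjusted p = 4.43e-06), and Arrb1, a beta arrestin among the 3 most abundant genes of the list, from 1557 ± 64.4 to 7986 ± 1066 (2.35 ± 0.18, limma adjusted p = 2.72e-05). Adcy6, an adenylyl cyclase, rose by 3.57 ± 0.62 and was highest in SI_6, with 543 reads against 67 to 207 in the other intestinal libraries. The epithelial, endothelial, smooth muscle, fibroblast, macrophage, and B and plasma cell sums were also highest there, and their part was not tested. Adcy1 rose by 2.47 ± 0.76 from few reads. Prkar2b, a regulatory subunit of protein kinase A, fell from 1390 ± 157.6 to 73.4 ± 13.7 (-4.18 ± 0.21, limma adjusted p = 2.65e-06). Adcy3 fell by 2.37 ± 0.32 and Rapgef3, a cyclic AMP sensor, by 1.86 ± 0.25 on the log2 scale.

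**Figure D5:**
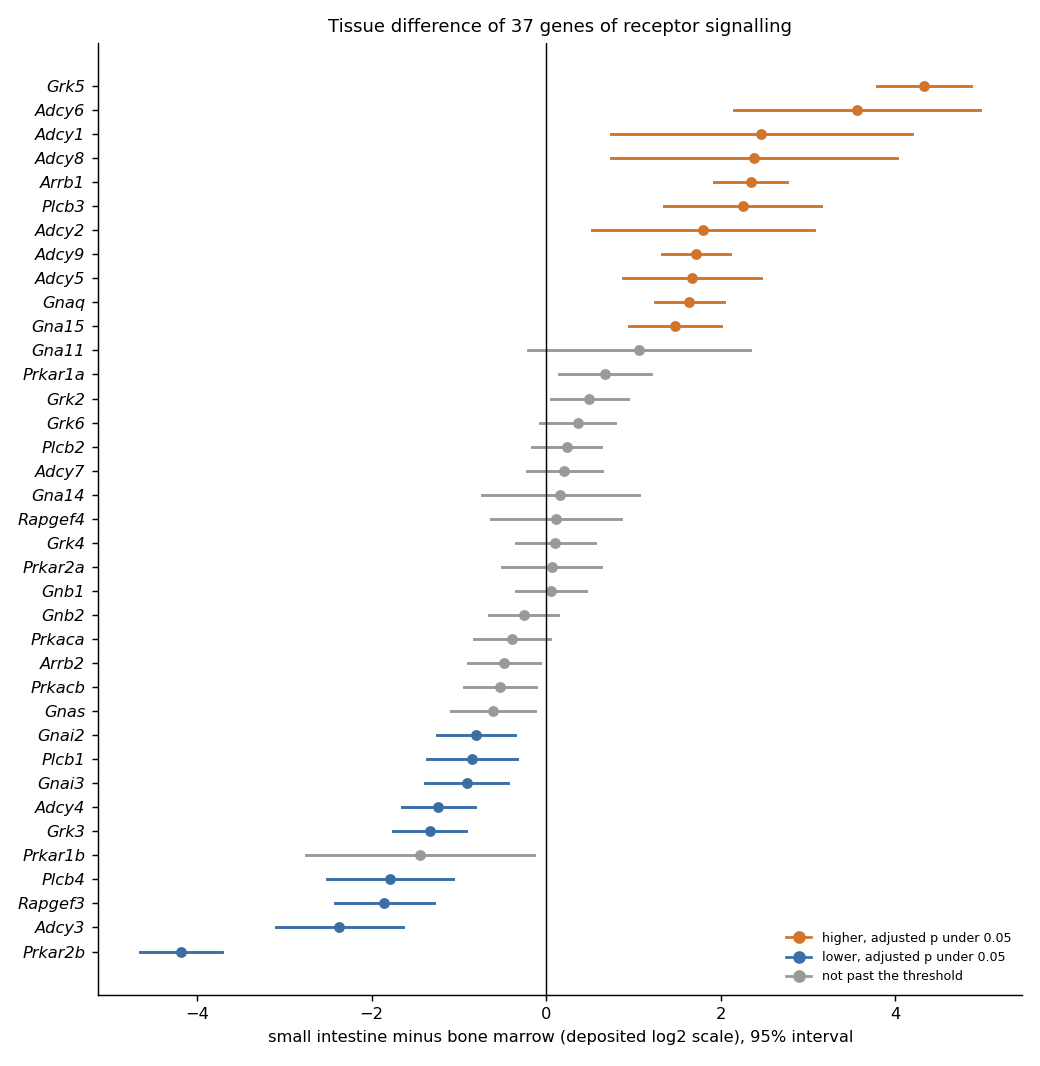
Tissue difference, small intestine minus bone marrow, in log2 units as deposited (horizontal axis) with 95% intervals for 37 genes of receptor signalling, sorted by difference (vertical axis); orange marks genes called higher, blue lower, grey not called. Grk5 at 4.33 was the highest and Prkar2b at -4.18 the lowest.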

How the data were processed

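The authors sorted eosinophils, amplified cDNA, sequenced single-end reads, counted them per gene (GRCm38, Ensembl 86) with nf-core/rnaseq and transformed the counts with DESeq2 in R 4.0.3. The deposited values are variance-stabilised and log2-like: 1 unit is nearly a doubling where reads are many and more than a doubling where they are few. Neither the aligner nor the strand setting is given in the sources used here. The transformation was inverted from its lowest value (0.92971568). Times a size factor per library, this gave whole reads within 0.05 for 100% of values, with a largest deviation of 0.00634 reads. Normalised counts are these reads divided by the size factor. Library depth was 11508002 to 21289164 reads, so precision is low for genes with few reads, and intervals cover the spread between libraries.

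Tissues were compared by limma 3.58.1 (R 4.3.3), fitted to the deposited log2 values of all 38392 genes in 8 libraries (constant prior, no covariate, no filter). It took the place of the authors' count model, and the recovered reads were used with voom as an alternative. Adjusted p-values are Benjamini-Hochberg over all genes, threshold 0.05. Ratios within a library (0.5 reads added, per kb of exon) were compared with 2-sided exact permutation tests over 70 assignments, adjusted over 6 ratios. The fit was tested on simulated reads, where it recovered most of the larger changes and few of the smaller ones. Far fewer genes changed there than were called in these data, and all shared the same dispersion. The simulation therefore does not measure how many changes the fit recovers here. Alternatives were quantile normalisation, median-centring, voom on recovered reads, a robust intensity-dependent prior, a mean of at least 10 normalised counts, pseudocounts of 1 and 5, and leaving out each library. Leaving out BM_5 and SI_10 together was added after the data were seen. Exon lengths and coordinates came from GENCODE M21 (GRCm38). Figures were drawn with matplotlib 3.10.9, and other steps ran in Python 3.11.15 (scipy 1.17.1, pandas 2.3.3, numpy 2.4.6).

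The receptors, the lists and the tests were chosen with earlier results of these data known. The genes named are the 7 receptors, the 15 relatives, of each other list of the pathway the 3 largest called rises, the 3 largest called falls and the 3 most abundant genes, the 2 nearest profiles, and markers beside the results they touch. Galr3 was not analysed here, and 1 further relative with its ratio, kept in the adjustment over 6, is not reported here.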

Additional observations from a re-analysis of the deposited data

Results flagged for a closer look

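The highest or lowest of 4 libraries of a tissue was examined by Dixon's ratio, its distance to the next library divided by the whole range of the deposited values, against a 95% limit of about 0.83. The ratio passed this limit in 10 of 76 sets of 4 values, where chance gives about 1 in 20, or 3.8. In 7 of the 10 the other 3 libraries were tied at 0 reads, so the remaining one had to differ. These were Adrb1 in small intestine, with reads in SI_10 alone, Adra1d in small intestine, with reads in SI_6 alone, Tacr2 in bone marrow, with 1 read in BM_3 alone, and Calcr, Tacr3, Adrb3 and Adra1a in bone marrow, with reads in BM_5 alone (ratio 1 for each). BM_5 was thus the library that stood apart in 4 of these 7. It also had the highest olfactory receptor level of the bone marrow libraries, 0.715 reads per kb.

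Among the groups without such ties, Calcr was lowest in SI_7 (ratio 0.863), with 0 reads there. Crcp was lowest in SI_6 (0.861), with 159.4 normalised counts against 224.7 to 237.4 in the other intestinal libraries. Adra2a was lowest in SI_11 (0.843), with 3.56 normalised counts against 18.6 to 24.0.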

How the results depend on the processing

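No paired analysis was possible because no number is shared between bone marrow and small intestine libraries. Nmur1, Vipr1, Ramp1 and Calcrl kept their direction and their call under all 15 alternatives with 1 choice changed and also without BM_5 and SI_10 together, with differences of 5.32 to 7.17, 2.03 to 3.49, -4.24 to -3.25 and -1.78 to -0.79. The median difference of all genes was 0.37, but -0.03 with quantile normalisation, -0.53 with median-centring and 0.89 with voom, and small differences turned with it. With quantile normalisation Vipr2 was at -0.58 and Tacr1 at -0.050. With median-centring Vipr2 was at -0.54, Tacr1 at -0.033, Adra1b at -0.0025, Adra1d at -0.40 and Adra2c at -0.37. Adrb1 was at 0.048 with a pseudocount of 5, and none of these values passed the threshold. Median-centring called Adrb1 lower (-1.17, adjusted p = 0.0389).

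Calls over all genes moved as well. In either direction they were 13402 in limma, 12986 with quantile normalisation, 14501 with median-centring, 15311 with voom and 14021 with the robust prior. They were 11932 of 16308 with the mean of at least 10, and 13335 without BM_5 and SI_10 together. With quantile normalisation the list counts that moved were 4 higher relatives, 3 lower receptors of other neuropeptides, 4 higher ligand genes, and 7 higher and 14 lower signalling genes. With median-centring they were 1 lower relative (Crcp), 2 lower receptors of other neuropeptides, 2 higher acetylcholine and dopamine receptors, 4 higher ligand genes, 2 lower clearance genes, and 6 higher and 15 lower signalling genes. Among genes with a mean of at least 10 normalised counts, a filter that leaves fewer genes to count, they were 0 higher relatives, 2 higher receptors of other neuropeptides, 2 higher acetylcholine and dopamine receptors, 2 higher ligand genes, 2 lower clearance genes and 14 lower signalling genes. Voom and the robust prior each gave 2 lower clearance genes. Without BM_5 and SI_10, 4 ligand genes were higher. The ratio of Nmur1 to Nmur2 differed by 4.02 with 1 read added (adjusted exact permutation p = 0.0343).

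Leaving out 1 library gave 3 to 7 higher relatives, 5 to 15 higher receptors of other neuropeptides, 4 to 7 higher ligand genes and 1 to 2 lower clearance genes. Calls over all genes, in either direction, then ranged from 10982 without BM_1 to 14670 without BM_5. The ratio of Ramp1 to Calcrl differed by -2.61 to -2.38, that of Ramp1 to Ramp2 plus Ramp3 by -7.41 to -6.88, that of Vipr1 to Vipr2 by 2.39 to 3.20 and that of Nmur1 to Nmur2 by 1.73 to 4.91. The cause was not tested for these changes. Depth limits Tacr1, Adrb1 and most relatives, which had few reads.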
